A study of Bubalus bubalis with 2 samples.

Results

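The loci described here are the 4910 rows, of 20905 in the deposited gene table, whose description reads "ensembl pseudogene". They carry an Ensembl cattle identifier and no gene symbol, and are called unnamed loci below. Membership was set by that description alone, but the group was chosen with earlier results of these data known. The samples were cell-free total RNA of saliva from Murrah water buffalo (Bubalus bubalis), a river-type dairy breed, with 1 library labelled estrus, the stage of sexual receptivity, and 1 labelled diestrus, the luteal stage. The labels give no treatment, age or number of animals, and both groups share breed, fluid and library kit. Values were FPKM, fragments scaled to transcript length and to library size. With 1 library per stage no spread can be estimated, so each difference below describes these 2 libraries and has no replicate check.

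A pseudogene is a copy of a gene that has lost the ability to make the protein of its parent. Processed copies arise when a messenger RNA is reverse transcribed and inserted back into the genome, so they lack introns, and genes with abundant messages, above all those of ribosomal proteins, have left many of them. Duplicated copies keep the exons and introns of the parent and often lie beside it in gene families such as olfactory receptors. Because a copy resembles its parent, a short read can map to both, and a value at a pseudogene can hold reads of the parent.

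The description was checked against the table. All 4910 rows with an Ensembl cattle identifier bore it, and 0 rows with a symbol did, so in this table the phrase coincides with having no symbol. The RefSeq table used for gene names covers the buffalo assembly NDDB_SH_1 and lists no cattle Ensembl identifiers, so the loci (0 of 4910 matched) could not be looked up in it and are given no parent gene or function. The spans also do not look alike. Spans ran from 47 to 1851199 bp with a median of 1159 bp, against a median of 20066 bp for the 15995 rows with a symbol. Of the unnamed loci 2908 (59.2%) spanned up to 2 kb and 1011 (20.6%) spanned over 20 kb. Among the 2715 of up to 1500 bp, 59.3% had a span that is a multiple of 3, the length step of an uninterrupted coding region. That share was 92.5% for 134 olfactory receptor loci, which are mostly intronless coding regions, and 34.2% for rows with a symbol over 1500 bp. The description is therefore used here as the name of the group and not as a statement that each locus is a pseudogene.

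Unnamed loci were listed above 0 less often than the other rows of the table. In estrus 815 of them (16.6%) were above 0 and in diestrus 933 (19.0%), against 40.3% and 45.4% of all rows. Both libraries were above 0 at 704 loci, against 35.1% of all rows. In all, 1044 (21.3%) were above 0 in at least 1 library, against 50.6% of all rows, and 3866 were at 0 in both. A listed 0 is not read as absence, because ribosomal protein genes, needed by all cells, had 27 of their 83 rows at 0 in both libraries.

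The loci that were above 0 had high values. Their median was 14.3 FPKM at estrus and 12.2 FPKM at diestrus, against 6.62 and 5.39 FPKM for rows with a symbol above 0. At 1000 FPKM or more there were 49 unnamed loci and 80 rows with a symbol in estrus, and 44 and 38 in diestrus. Unnamed loci thus outnumbered the rows with a symbol at that level in the diestrus library only. They held 42 of the 100 highest rows in estrus and 49 of the 100 highest in diestrus.

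As a share of each library's FPKM sum, unnamed loci made up 21.2% in estrus (215078 of 1016100 FPKM) and 31.2% in diestrus (162875 of 521566 FPKM). The estrus share was set partly by a few rows with a symbol. Without the 5 highest rows of each library it was 30.4%, against 34.2% in diestrus. The 5 left out in estrus all had a symbol, while those left out in diestrus included the unnamed ENSBTAG00000009359 (12584 FPKM). The sum was concentrated in few loci. The 10 highest held 37.7% of the unnamed sum in estrus and 31.7% in diestrus, and 18 and 22 loci made up 50% of it.

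The depth behind these values was estimated from the values themselves. At loci of 400 to 3000 bp, part of the low FPKM values lay on steps of whole fragments. At the best step of a grid, 62 of 1075 loci above 0 in estrus were within 0.4% of 1 to 5 fragments. In diestrus 116 of 1237 were, and other steps gave medians of 2 and 7. On these steps 1 fragment added 0.233 FPKM per kb of effective length in estrus and 1.25 in diestrus, 5.35 times as much, with mean fragment lengths near 182 and 186 bp. The range searched for diestrus lay wholly above that for estrus, so the order of the 2 steps was set beforehand. Unnamed loci supplied 44 and 54 of the loci on the steps, out of 86 and 209 unnamed loci low enough to lie on them (51.2% and 25.8%). The other low loci lay off the steps. If the authors' totals were not rescaled, this implies totals of 4284998 fragments for estrus and 800230 for diestrus. The estrus library was the deeper by this measure, an order that the search ranges had set. More unnamed loci were above 0 in diestrus, as were more of all rows.

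These steps allow an estimate of fragments for the 2661 unnamed loci that lay alone and spanned 300 to 3000 bp, taking the whole span as the transcript. A spliced or shorter transcript would have fewer, so each estimate is an upper limit. In estrus the 509 such loci above 0 had a median of 43.5 fragments. Rounded to whole fragments, 58 of them had fewer than 3. In diestrus 570 were above 0 with a median of 9.47 fragments, and 169 had fewer than 3 when rounded likewise. Together they held about 259532 fragments in estrus (6.06% of the implied total) and 39134 in diestrus (4.89%), although the same loci held 14.1% and 20.7% of the FPKM sums. The order of the libraries was thus opposite in the 2 measures, which divide by unlike totals. The first uses the implied total, which holds only if totals were not rescaled, and the second the FPKM sum of all rows. The cause of the opposite order was not tested. FPKM weights short loci more than a count of fragments does.

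Some values were below the worth of a single fragment. Among these loci 48 of 570 in diestrus (8.42%) and 8 of 509 in estrus (1.57%) stood under 0.9 fragments. For rows with a symbol chosen in the same way the numbers were 21 of 711 (2.95%) and 1 of 605 (0.165%). The lowest unnamed locus stood at 0.0515 fragments in diestrus, and the lowest such row with a symbol at 0.0512. Such values cannot be a whole number of fragments given to the locus, so the FPKM of these loci include fractions of fragments. The rule by which the authors divided fragments between similar sites was not stated.

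The highest unnamed loci were partly the same in both libraries. Of the 10 highest in each, 6 were shared, of the 20 highest 11, and of the 50 highest 35. Such an overlap was not counted for rows with a symbol. ENSBTAG00000009359 on chromosome 15 (38876122 to 38876667), a locus of 546 bp, stood at 9042 FPKM at estrus and 12584 FPKM at diestrus, the third highest value among all rows of the diestrus library. It lay alone, 23583 bp from RRAS2, and its values correspond to at most about 14104 and 3625 fragments. The libraries lay within 2-fold there, with a log2 ratio of estrus over diestrus of -0.48 on the log2(FPKM + 1) scale. That scale, which understates the change of low values, is used for every ratio below.

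The highest unnamed locus of the estrus library was ENSBTAG00000003086 on chromosome 7 (33638716 to 33639158), of 443 bp, at 12476 FPKM, against 2795 FPKM at diestrus, a log2 ratio of 2.16. ENSBTAG00000001538 on chromosome 3 (117506247 to 117506811), of 565 bp, followed at 10932 against 5535 FPKM, a ratio of 0.98. It lay 23916 bp from COL6A3, a collagen VI chain gene. ENSBTAG00000016391 on chromosome 9, of 294 bp, stood at 8971 against 3468 FPKM. ENSBTAG00000038430 on chromosome 23, of 528 bp, stood at 6581 against 2931 FPKM. All 4 were higher in estrus, and in diestrus they still ranked between 8 and 27 among all rows.

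Very short loci were among the highest. ENSBTAG00000046620 on chromosome 1 spanned 213 bp and stood at 6299 FPKM at estrus and 1893 FPKM at diestrus. ENSBTAG00000045665 on chromosome 17 (15274689 to 15274943) spanned 255 bp and stood at 5209 FPKM in estrus but was listed at 0 in diestrus. Such spans are close to the length of a fragment, which leaves a short effective length, so each fragment adds more FPKM. Fragments were not estimated for spans under 300 bp, so the number behind these values is not given. ENSBTAG00000046100 on chromosome 26, of 515 bp, stood at 4906 against 3164 FPKM and lay 5326 bp from KIF11, a mitotic kinesin gene.

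In diestrus other loci joined the leading 10. ENSBTAG00000037775 on chromosome 5 (30713144 to 30723571), of 10428 bp and 4780 bp from TUBA1C, an alpha-tubulin gene, stood at 1614 FPKM at estrus and 5709 FPKM at diestrus, a ratio of -1.82. ENSBTAG00000025385 on chromosome 10, of 630 bp, stood at 3153 against 4485 FPKM. ENSBTAG00000038913 on chromosome 1, of 768 bp, stood at 689 against 3720 FPKM. ENSBTAG00000034433 on chromosome 19 (12844738 to 12845367), of 630 bp, showed the widest gap of the leading loci towards diestrus, at 87.1 against 3205 FPKM with a ratio of -5.19, or at most about 167 and 1139 fragments.

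**Figure D1:**
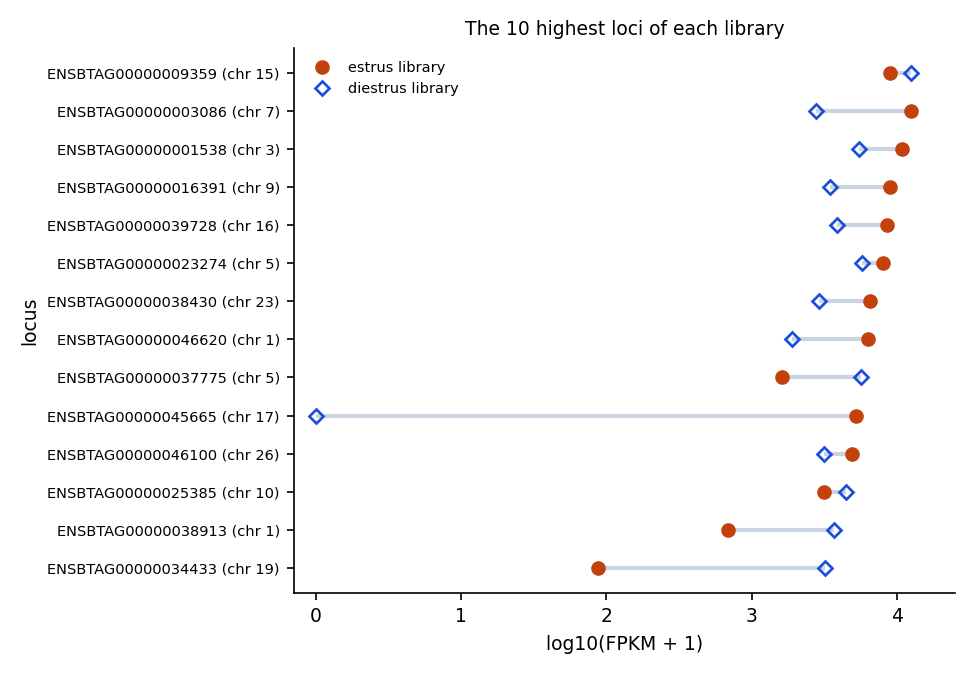
FPKM of the 14 unnamed loci that were among the 10 highest of either library, on a log10(FPKM + 1) axis, with filled circles for the estrus library and open diamonds for the diestrus library. Some pairs lie within 2-fold, such as that of ENSBTAG00000009359, and others lie further apart. ENSBTAG00000045665 was at 0 in diestrus and ENSBTAG00000034433 was at 87.1 FPKM at estrus against 3205 FPKM at diestrus.

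Span and detection were related in a different way for unnamed loci and for rows with a symbol. None of the 279 unnamed loci of up to 100 bp and 3 of the 128 over 100 and up to 200 bp were above 0, and these spans are close to or below the mean fragment length. Of the 370 loci over 300 and up to 500 bp 36.8% were above 0, the highest share of any span class of the unnamed loci, against 16.2% of 37 rows with a symbol. Of the 428 over 2000 and up to 5000 bp 16.4% were above 0, against 59.2% of rows with a symbol. Loci over 300 and up to 1000 bp held most of the unnamed FPKM. Of these, loci up to 500 bp held 24.1% in estrus and 16.7% in diestrus, and loci over 500 bp held 38.6% and 44.0%. Those over 20 kb held 19.8% and 22.4%.

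**Figure D2:**
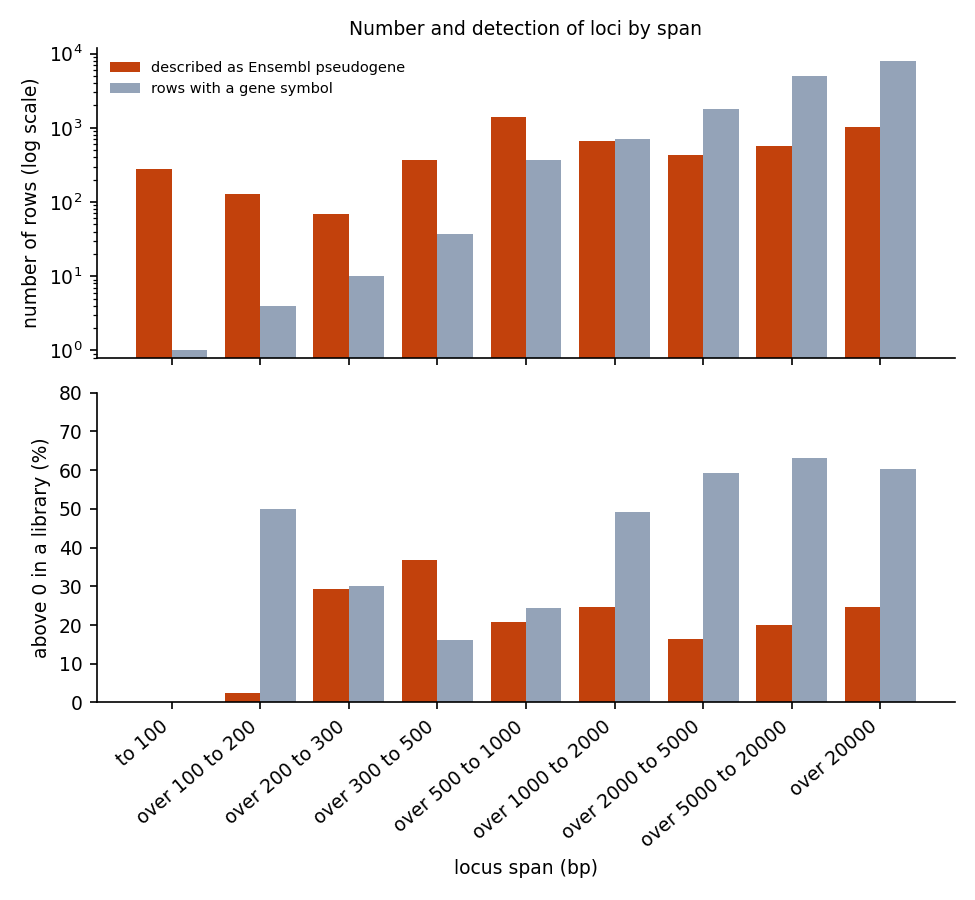
Number of rows (upper panel, log axis) and percent listed above 0 in at least 1 library (lower panel) by locus span in bp, for unnamed loci and rows with a gene symbol. Detection of unnamed loci was highest over 300 and up to 500 bp (36.8%) and 0% up to 100 bp, while that of rows with a symbol lay between 59.2% and 63.1% over 2000 bp.

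On the autosomes and X, unnamed loci made up from 12.9% of rows on chromosome 22 to 43.7% on chromosome 15, with 42.3% on X. The share above 0 ran from 7.26% on chromosome 15 (30 of 413) to 30.3% on chromosome 2. The table places 3 on unplaced scaffolds and 4 on the mitochondrial genome. Of the mitochondrial loci only ENSBTAG00000043547 (5376 to 5685) was above 0, at 50.2 FPKM in diestrus, or about 4.98 fragments, and 0 in estrus. On chromosome 17 the unnamed sum was 6728 FPKM at estrus and 460 FPKM at diestrus, 14.6 times apart, and 5209 of the estrus value came from ENSBTAG00000045665.

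**Figure D3:**
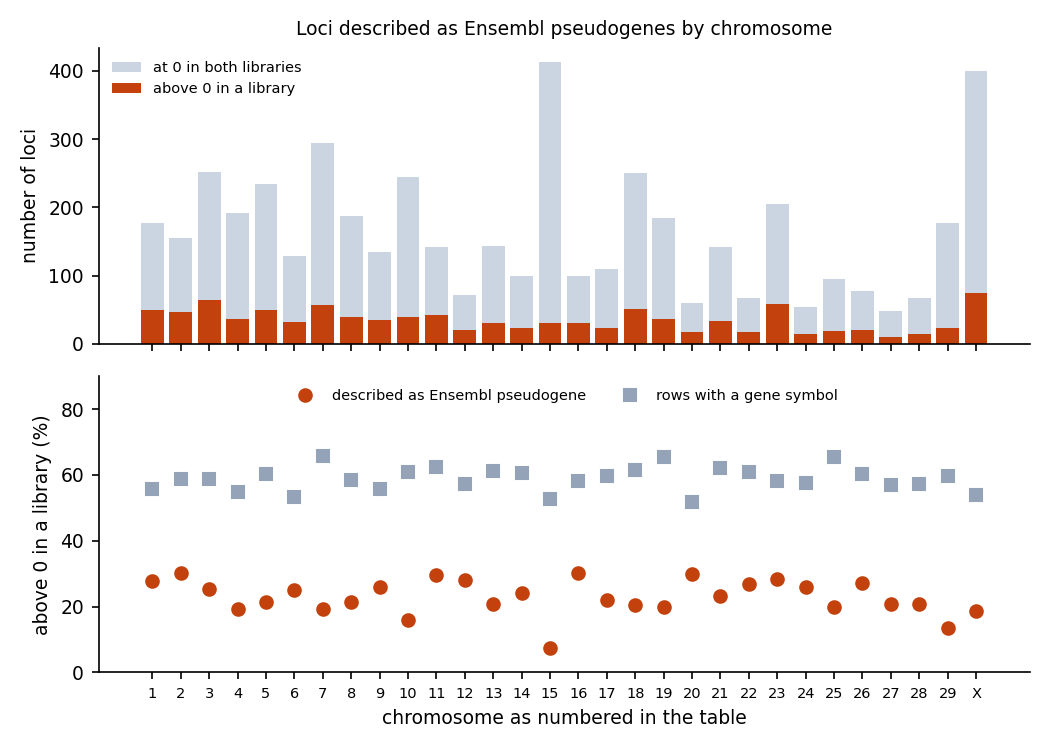
Unnamed loci per chromosome, as numbered in the table, with those above 0 in a library in colour (upper panel), and the percent above 0 for unnamed loci and for rows with a symbol (lower panel). Chromosome 15 held the most unnamed loci, 413, and the lowest share above 0, 7.26%.

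The gene families beside the unnamed loci differed in detection. For each locus the nearest row with a symbol was taken, and family groups were chosen after values were seen. Of the 590 loci whose nearest row was an olfactory receptor, a family used in the nose, 16 (2.71%) were above 0, and 260 of them lay on chromosome 15. Of the 4320 others 23.8% were above 0. None of 106 loci beside T cell receptor or immunoglobulin segments and none of 33 beside interferon genes were above 0. Of 245 beside zinc finger genes 18.4% were above 0, and 7 of 11 beside MHC genes were. The highest share among the larger groups was beside histone genes, with 29 of 57 (50.9%).

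Histones package DNA, and the HIST1 genes lie in tandem on 1 chromosome in mammals. The interval between BTN1A1 and SCGN on chromosome 23 (31456886 to 31919276) held 27 unnamed loci and 9 HIST1 rows. It was chosen for description after its values were seen. Of the 23 unnamed loci that lay alone, spans ran from 312 to 792 bp and 19 were multiples of 3, with 6 loci of 411 bp, 4 of 381 bp and 4 of 312 bp. The named rows HIST1H2BA and HIST1H2AA spanned 384 and 390 bp. No histone identity is given here to an unnamed locus.

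In estrus 11 of the 27 were above 0, in diestrus 10, and 6 in both. ENSBTAG00000031766 (31497480 to 31497890, 411 bp) stood at 2607 FPKM at estrus and was listed at 0 at diestrus. ENSBTAG00000031773 (31654044 to 31654454, also 411 bp) stood at 2482 FPKM at estrus and was listed at 0 at diestrus. ENSBTAG00000031770 (31525879 to 31526259, 381 bp) stood at 514 FPKM at estrus and was listed at 0 at diestrus. These values correspond to at most about 2559, 2436 and 439 fragments, and a transcript shorter than the span would have fewer. Fragments are also not independent molecules. The other 24 loci stayed at or below 27.0 FPKM at estrus and 66.8 FPKM at diestrus.

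Several neighbours of those loci went the other way. ENSBTAG00000031757 (381 bp) was listed at 0 in estrus and stood at 66.8 FPKM in diestrus, about 10.4 fragments. ENSBTAG00000031760 (381 bp) stood at 1.18 FPKM in estrus, or 1 fragment, and 54.7 FPKM in diestrus, about 8.54 fragments. ENSBTAG00000031717 (411 bp) stood at 17.2 against 63.6 FPKM, about 16.8 and 11.5 fragments. Loci of equal span in the interval thus lay on opposite sides. Of the 9 HIST1 rows 5 were above 0, with maxima of 15.5 FPKM for HIST1H1E in estrus and 17.9 FPKM for HIST1H2BD in diestrus, far below the 2 leading unnamed loci. Summed over the 27 loci the interval held 5668 FPKM at estrus and 258 FPKM at diestrus. Reads of near-identical copies can be placed at any of them. Whether the loci of this interval are such copies was not examined, so the value of a single locus is uncertain.

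**Figure D4:**
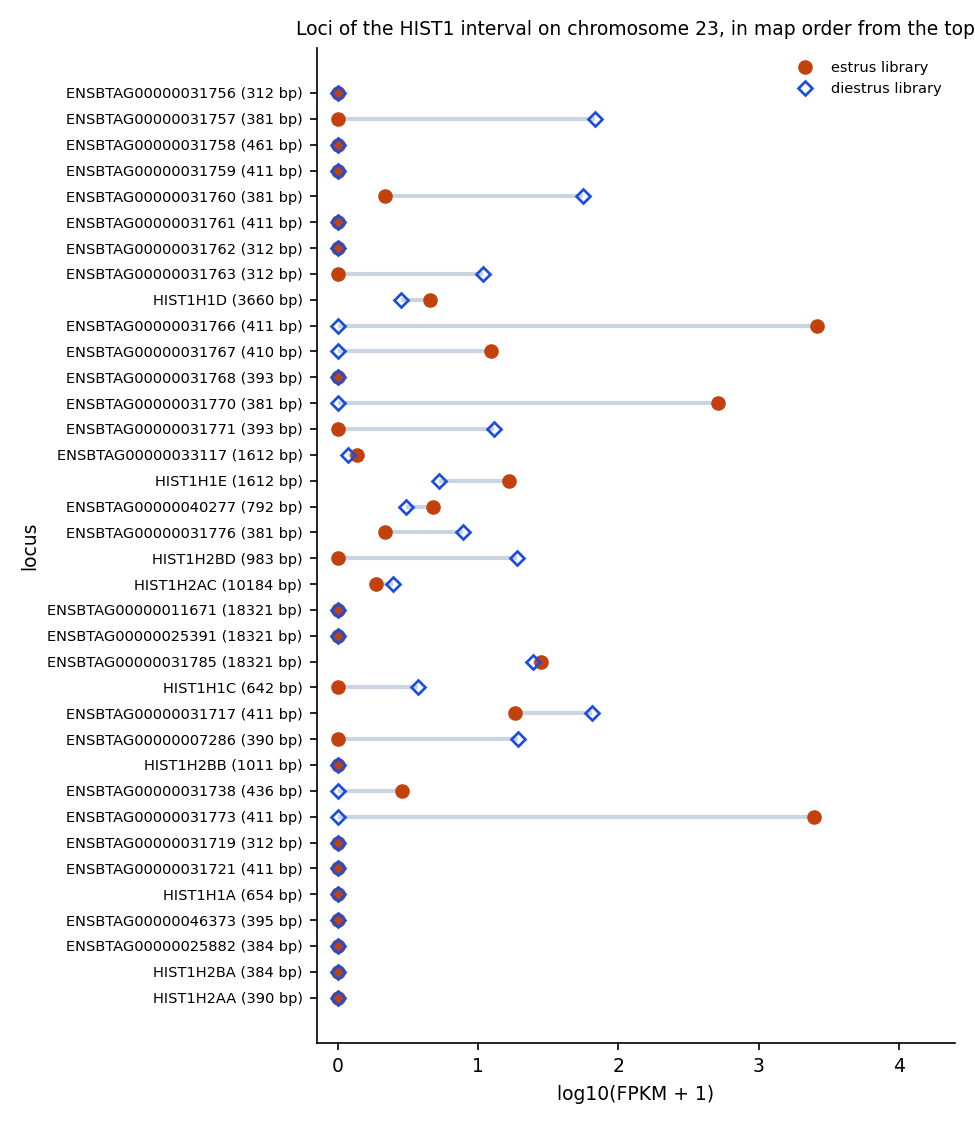
FPKM of unnamed loci and HIST1 rows between BTN1A1 and SCGN on chromosome 23, in map order, on a log10(FPKM + 1) axis, with filled circles for the estrus library and open diamonds for the diestrus library. The estrus values of ENSBTAG00000031766, ENSBTAG00000031773 and ENSBTAG00000031770, at 2607, 2482 and 514 FPKM, stand apart from the other loci, and all 3 were at 0 in diestrus.

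To compare the stages over all unnamed loci, a locus was counted when its mean over both libraries was at least 1 FPKM, which 851 of 4910 met, and called apart at 2-fold or more. Of these, 249 (29.3%) were higher in estrus, against 31.3% of all counted rows, and 342 (40.2%) were lower, against 33.1%. The other 260 lay between. The median log2 ratio was -0.37, against -0.016 over all 8269 counted rows and 0.020 over the 7418 counted rows with a symbol. With FPKM rescaled to an equal sum in both libraries, 168 were higher and 509 lower and the median was -1.41, but the median of all counted rows then fell to -1.02.

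The direction depended on abundance. Between 1 and 10 FPKM the median over 333 loci was -1.31, with 102 of them at 0 in estrus and 37 at 0 in diestrus. Between 10 and 100 FPKM it was -0.18 over 323 loci, between 100 and 1000 FPKM 0.54 over 149, and from 1000 FPKM 0.63 over 46. The corresponding medians for rows with a symbol were -0.48, 0.43, 0.83 and 1.11. The unnamed median was lower than that of rows with a symbol in each class, and both groups turned from negative to positive as abundance rose. With a mean of at least 10 FPKM the unnamed median turned to 0.16, against 0.51 for all rows. By the steps, 1 fragment in diestrus alone meets the filter at an uninterrupted locus of up to 811 bp, and 1 fragment in estrus alone only up to 299 bp. The part of this in the result was not tested.

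Values at the loci above 0 in both libraries rose and fell together, with a Spearman rho of 0.70 over 704 unnamed loci and 0.62 over 6640 rows with a symbol. Points of 1 library share its depth and the 2 libraries share transcript lengths, so the rho is a description.

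**Figure D5:**
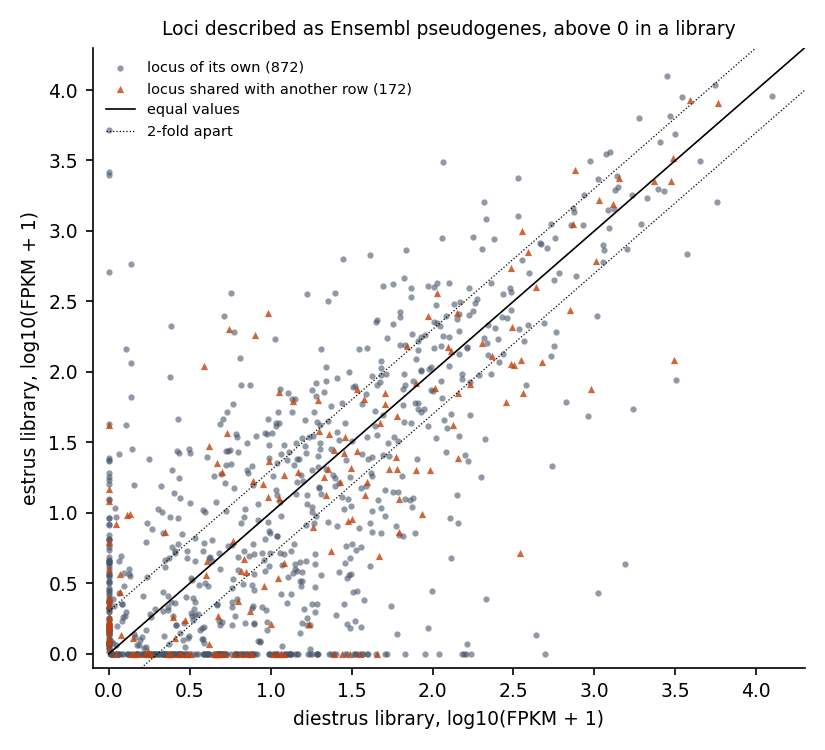
Estrus against diestrus values on log10(FPKM + 1) axes for the 1044 unnamed loci above 0 in a library, 872 with a locus of their own and 172 that share a locus with another row. The solid line marks equal values and the dotted lines 2-fold. Within 2-fold lay 61 of the 149 loci with a mean of 100 to 1000 FPKM and 25 of the 46 from 1000 FPKM. For rows with a symbol, not drawn here, the counts were 205 of 552 and 23 of 58. Loci at 0 in 1 library lie along the axes.

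Among the 479 loci above 0 in both libraries with a mean of at least 10 FPKM, the largest ratios towards estrus began with ENSBTAG00000032281 on chromosome 14 (75849444 to 75850834), of 1391 bp. It stood at 586 FPKM in estrus, at most about 3034 fragments, and 0.372 FPKM in diestrus, or 0.359 fragments, a log2 ratio of 8.74. ENSBTAG00000034225 on chromosome 28 followed at 145 against 0.284 FPKM (6.83), and ENSBTAG00000018680 on chromosome 11, 255 bp from SUPT7L, at 210 against 1.44 FPKM (6.44). ENSBTAG00000012765 on chromosome 16 (115 against 0.375 FPKM) had a ratio of 6.40, followed by ENSBTAG00000025764 on chromosome 21 (361 against 4.65 FPKM). For all 5 loci of the leading 10 with an estimate, the diestrus value was under 3 fragments, which leaves these ratios without a firm size. The remaining 5 of the 10 had ratios from 5.04 to 5.60.

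The largest ratios towards diestrus began with ENSBTAG00000035206 on chromosome 28 (16655903 to 16656452), of 550 bp and 21980 bp from CDK1, a gene of the mitotic cycle. It stood at 1.69 FPKM in estrus, about 2.66 fragments, and 1045 FPKM in diestrus, at most about 304 fragments, a ratio of -8.60. ENSBTAG00000046952 on chromosome 10, of 453 bp, stood at 3.30 against 1546 FPKM (-8.49), and ENSBTAG00000047000 on the same chromosome, of 1437 bp, at 0.350 against 432 FPKM (-8.33), about 1.88 against 433 fragments. ENSBTAG00000011113 on chromosome 21 (39655563 to 39657038) stood at 0.180 against 163 FPKM (-7.12), which is 0.997 against 168 fragments. In these 4 loci the estrus library held at most 3.83 fragments by the steps, where the diestrus library had estimates of 168 or more.

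Among the rest of that 10, ENSBTAG00000027974 on chromosome 5 (27362318 to 27370574) lay 8487 bp from KRT77, an epidermal keratin gene, and stood at 1.44 against 214 FPKM, a ratio of -6.46. ENSBTAG00000022590 on chromosome 23 lay 50356 bp from CDSN, the corneodesmosin gene of cornified epithelium, at 0.388 against 58.9 FPKM (-5.43). Epithelial markers did not share a direction. Of 7 counted markers of oral squamous epithelium 5 were at least 2-fold lower in estrus and 1 higher, with a median of -4.40, and KRT6A alone, at 30046.5 FPKM, set their higher sum in estrus (30187 against 2682 FPKM). Their part in the unnamed loci was not tested. All 7 fibroblast markers were above 0 in both libraries, with a median log2 ratio of 0.033, 1 of them at least 2-fold higher in estrus and 1 lower, and sums of 10953 against 13507 FPKM. Of the neutrophil markers 5 of 8 were at 0 in both, and the 3 salivary gland markers in the table were at 0 in both.

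Some unnamed loci were high in 1 library and listed at 0 in the other. There were 111 above 0 only in estrus (2.26%) and 229 only in diestrus (4.66%), against 5.17% and 10.3% of all rows, so the larger number in diestrus was shared with the table as a whole. Of the 111, the 4 highest were the 3 loci of the histone interval and ENSBTAG00000045665, and the fifth, ENSBTAG00000037709 on chromosome 13, stood at 41.7 FPKM. In diestrus ENSBTAG00000024773 on chromosome 9 (51596537 to 51601433), of 4897 bp, led with 496 FPKM. ENSBTAG00000023507 on chromosome 7 stood at 171 FPKM, ENSBTAG00000001477 on chromosome 23 at 160 FPKM, ENSBTAG00000018583 on X at 156 FPKM and ENSBTAG00000001350 on chromosome 18, 1548 bp from CYP2F1, at 150 FPKM. The last 4 correspond to at most about 93.3, 32.5, 198 and 44.0 fragments in diestrus against none in estrus.

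Of the 4910 unnamed loci, 11 (0.224%) had a p-value under 0.05 in the authors' deposited table, against 0.234% of all rows, so the share lay near the background. Of these 6 were higher in estrus and 5 in diestrus, and 8 were at 0 in 1 library. The smallest p-value in the authors' deposited table for an unnamed locus was 0.00845, at ENSBTAG00000031766, with a q-value of 0.413, which was the lowest q-value of any unnamed locus. ENSBTAG00000003560 on chromosome 12, of 774 bp, was the only called locus with an abundant signal in both libraries, at 3155 against 942 FPKM, a log2 ratio of 1.74. Its p-value in the authors' deposited table was 0.0234 and its q-value 0.757.

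Unnamed loci also lay within merged loci. Of the 4910, 655 had the same locus as another row, with identical ends in every case, and 530 of these shared it with a row that has a symbol. Of the 530, 145 were above 0 and 123 were counted. In 50 of the 123 every row with a symbol at the same locus was listed at 0 in both libraries, which gives no ratio. In 37 of the other 73 the unnamed row had at least 10 times the mean FPKM of the highest row with a symbol, and in 17 that row was the higher. For these rows the printed span is that of the merged locus and the length of the unnamed transcript is unknown.

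The most abundant of them were ENSBTAG00000023274, in the locus of KDM5A on chromosome 5 (107730640 to 107791602), and ENSBTAG00000039728, in a locus of 7 rows with a symbol on chromosome 16 (52240501 to 52373541). The first stood at 8070 against 5811 FPKM while KDM5A, a histone demethylase, stood at 0.234 against 2.47 FPKM. The second stood at 8542 against 3876 FPKM while SSU72, an RNA polymerase II phosphatase and the highest of its named rows, stood at 33.2 against 7.17 FPKM. ENSBTAG00000048229 stood at 3300.5 against 3076 FPKM in the locus of MEIOB, a meiosis gene that was at 0 in both libraries. The host rows were likewise at 0 in both libraries for ENSBTAG00000032150 (2273 against 2347 FPKM, with NELL2), ENSBTAG00000023471 (2722 against 761 FPKM, with SLC4A8) and ENSBTAG00000031795 (1554 against 1294 FPKM, with TNIK).

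One of the leading 10 differed strongly between the libraries. ENSBTAG00000038422, in the locus of PAK2, a signalling kinase, stood at 119 against 3125 FPKM, a ratio of -4.70, while PAK2 was at 0 in estrus and 0.865 FPKM in diestrus. For ENSBTAG00000046486, with RCL1, and ENSBTAG00000023792, with OSTM1, the values were 2264 against 2954 FPKM and 2386 against 1415 FPKM. ENSBTAG00000047132, with IL27RA, a cytokine receptor gene, stood at 1122 against 740 FPKM, and IL27RA at 101 against 15.9 FPKM, the highest host value of the 10. Where both rows were counted, in 53 pairs, the ratios had the same sign in 33 and a Spearman rho of 0.36, as a description of rows that share library and locus.

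The genes that most often leave processed copies were set beside the unnamed loci. Of 75 other frequent parents, such as the genes of glycolysis, actins, ferritins and chaperones, 5 were at 0 in both libraries. Among 65 counted, 27 were at least 2-fold higher in estrus and 9 lower, with a median log2 ratio of 0.55. Of 55 counted ribosomal protein rows 17 were higher and 17 lower, with a median of 0.43. The median of all counted unnamed loci was -0.37, but the lists were not matched to them for abundance, and unnamed loci from 100 to 1000 FPKM had a median of 0.54. These lists are not parents identified for the loci described here.

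The longest and shortest loci above 0 show the limits of span as a measure. ENSBTAG00000045493, in the merged locus of CTNNA3 on chromosome 28, spanned 1851199 bp and stood at 15.5 against 25.8 FPKM. The shortest, ENSBTAG00000045783 on chromosome 16 (5201143 to 5201319), spanned 177 bp, less than the mean fragment of either library, and stood at 390 against 167 FPKM. ENSBTAG00000025383 on chromosome 12, of 198 bp, stood at 20.3 against 548 FPKM. ENSBTAG00000040564 on chromosome 10, of 192 bp, stood at 912 against 176 FPKM, so the shortest loci did not share a direction.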

How the data were processed

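Cell-free total RNA of buffalo saliva was sequenced as 1 library per stage, with the Illumina TruSeq RNA kit, version 2, per the labels' protocols. TopHat, Bowtie, Cufflinks and Cuffdiff are listed in the submitters' processing notes, with no role or version. The sources used here do not give the genome build or the handling of reads that map to several sites. Per the file headers, values were FPKM per row, made by the authors. The log2 fold change, p-value, q-value and test statistic score columns, deposited by the authors, were not recomputed, and the log2 and score columns were not used.

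Starts in the table were read as counting from 0 and are printed counting from 1. Ratios were log2((estrus FPKM + 1)/(diestrus FPKM + 1)), with rows counted at a mean of at least 1 FPKM. The worth of 1 fragment was found by a grid search over step and fragment length, tested on simulated data. Each library had its own range of steps, without overlap, and the simulated data were searched over the same ranges. With 1 library per stage there was no test of the stages and no p-value was computed.

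Loci were named by fixed rules: the 10 highest per library, the 10 extreme ratios each way above 0 in both libraries at a mean of at least 10 FPKM, the 5 highest at 0 in the other library, up to 10 of smallest authors' p-value, the 5 longest and shortest, and the 10 most abundant that overlap a row with a symbol. The other loci named in the histone interval, the mitochondrial locus and the family groups were chosen after values were seen. Members and lists were chosen with earlier results of these data known. No genome was at hand, so no locus sequence is shown. Python 3.11.15, pandas 2.3.3 and scipy 1.17.1 were used.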

Additional observations from a re-analysis of the deposited data

How the results depend on the processing

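Detection counts stayed within 1.5 times of the reported ones under each alternative run. The share of the FPKM sum in estrus and diestrus was 17.7% and 26.0% without loci that overlap another row, 19.3% and 30.0% without spans under 300 bp, 30.4% and 34.2% without the 5 highest rows of the library, and 20.2% and 29.5% without the highest unnamed locus. Of the unnamed loci 518 were counted at a mean of at least 10 FPKM, and 412 among loci of their own with at least 10 estimated fragments in a library, an alternative added after seeing the data. For that alternative the estimates were rounded to whole fragments. The number higher in estrus was 158 with a pseudocount of 10 FPKM, 134 at 4-fold and 139 with at least 10 fragments. The number lower was 178 with a pseudocount of 10 FPKM, 162 at a mean of at least 10 FPKM, 210 with only loci above 0 in both libraries and 119 with at least 10 fragments. The fragment filter favoured estrus, where 375 loci had at least 10 fragments against 282 in diestrus. It was not run on all rows, so the counts and median under it cannot show a direction. The median log2 ratio reversed to 0.16 at a mean of at least 10 FPKM and to 0.24 with at least 10 fragments. It stayed negative at -0.40 and -0.19 with pseudocounts of 0.1 and 10 FPKM, -0.33 with no filter, -0.085 with loci above 0 in both libraries, -0.77 with equal upper quartiles (all rows -0.43), -1.41 with equal FPKM sums (all rows -1.02), -0.36 without overlapping loci and -0.38 without spans under 300 bp. With equal upper quartiles 201 were higher and 407 lower. The direction of the unnamed loci thus depended on the filter, and the cause was not tested. By the steps, whose order the search ranges had set, 3 fragments per kb make 3.75 FPKM in diestrus against 0.70 FPKM in estrus. The part of depth in these results was not tested. No paired analysis was possible because each stage has 1 library.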
